A study of Ovis aries with 6 samples.

Results

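The clusters described here are 228 stretches of 20 kb in the sheep genome (build Oar_v3.1). Each held several regions of low methylation that the authors listed for lamb fat and not for fetal fat. The clusters were chosen by cutting autosomes 1 to 26 into fixed bins of 20 kb from base 1, 122616 bins in all. A lamb-only low-methylated region (LMR) is one on the authors' lamb list that shares no base with an unmethylated region (UMR) or LMR of the fetal list, and a fetal-only LMR is the reverse. A bin counted as a cluster when it held the midpoints of at least 3 lamb-only LMRs and of no fetal-only LMR, and 0.186% of bins did. The lists were made from the same animals, so a low lamb level inside the lamb-only LMRs follows from the choice and is given as a description.

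LMRs are short stretches where part of the DNA molecules carry no methyl group at CpG sites. In mammals they lie mostly away from promoters, often at enhancers where transcription factors bind, and they change with cell type, while the bulk of the genome stays highly methylated. UMRs are the nearly unmethylated stretches that include most CpG-rich promoters, and DNA methylation valleys (DMVs) are long ones that often hold developmental regulator genes. Several LMRs close together are a known feature of loci with many enhancers. In the fat depot around the sheep kidney, brown fat, which burns fuel for heat at birth, gives way to white fat, which stores lipid.

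Whole-genome bisulfite sequencing was done on genomic DNA of this perirenal fat from 3 lambs and 3 fetuses, all wild type, untreated and pure bred merino. The lambs were born at term, their tissue is labelled white adipose, and their age is given as 89 days after birth with the samples and 80 days in the series text. The fetuses were collected on day 132 of gestation, of a term of 150 days, and carry the label of brown adipose. Every sample is a separate animal, taken as frozen whole tissue, and a shift in the share of cell types cannot be told apart from a change within cells. Covering reads summed over all CpG positions came to 136938075 to 209550245 per animal, so that autosomal CpGs were covered 5.22 times on average in lamb 2 and 8.00 times in lamb 1. Only CpGs with at least 5 reads in every animal were used. The methylation level is the share of reads that kept a C, in percent, summed over CpGs for each animal.

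In all, the clusters held 721 lamb-only LMRs, 2.75% of the 26223 on the autosomes. Exactly 3 of them lay in 197 clusters, 4 in 27 clusters, 5 in 2 clusters and 6 in 2 clusters. The LMRs were short, with a median length of 377 bases and quartiles of 217 and 752, against a median of 569 bases for the 25502 lamb-only LMRs elsewhere. They held a median of 6 CpGs in both places and were denser in the clusters, at 11.7 CpGs per kb against 8.32 elsewhere. Neighbouring lamb-only LMRs of a cluster were separated by a median of 3430 bases, with quartiles of 1433 and 6193. Gaps of at most 500 bases made up 59 of 493, or 11.97%. From the first to the last LMR a cluster spanned a median of 11236.5 bases. The midpoints had to lie within a single bin of 20 kb. Gaps and spans are thus bounded by the rule and are given as a description. The nearest UMR or LMR of the fetal list was a median of 4071 bases away, and 11.7% of the LMRs had one within 500 bases.

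Inside the lamb-only LMRs of the clusters the level was 39.99%, 40.3% and 39.9% in lambs 1 to 3, against 50.3%, 51.7% and 49.9% in fetal animals 1 to 3. The 3 lambs lay close together and each was below each fetus, as the choice of these LMRs would give. The mean was 40.1% ± 0.182 in lambs and 50.6% ± 0.956 in fetal animals (SD, n = 3 each), which puts lambs at -10.5 percentage points relative to fetal animals. Of the 721 LMRs 199 had at least 3 usable CpGs, with a median of 34.3 reads per animal. Among these 199 the median level was 39.6% in lambs and 51.1% in fetal animals, and 45.2% of them had a fetal mean under 50%. The median difference was -10.3 points, with quartiles of -17.8 and -4.56. The mean was lower in lambs in 175 of the 199, or 87.9%, against 53.9% of all measured LMRs of the lamb list. Every lamb lay below every fetus in 52 of the 199, or 26.1%, against 8.2% of that list. Lamb-only LMRs outside the clusters were much like those inside. Of 6752 measured there, 87.5% had the lower mean in lambs and 23.8% had every lamb below every fetus. Their median difference was -9.80 points. Since the lists chose all these LMRs, nothing is read from those shares. In 54 clusters at least 2 LMRs could be measured, and in 41 of them each measured LMR had the lower mean in lambs. No such share was taken for other bins, and the lists chose these LMRs too, so nothing is read from this count.

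The rest of each bin showed little of this difference. Other LMRs in the clusters were at 32.5% ± 0.397 in lambs and 31.9% ± 0.949 in fetal animals (SD, n = 3 each). UMRs and DMVs in the clusters were at 19.99% ± 0.172 in lambs and 20.04% ± 0.224 in fetal animals, while over all autosomal bins they were at 11.95% ± 0.116 in lambs and 11.5% ± 0.172 in fetal animals (SD, n = 3 each). A level above that of UMRs and DMVs in general was also found in other bins with many LMRs, at 24.2% ± 0.561 in lambs and 23.1% ± 0.272 in fetal animals in the clusters of fetal-only LMRs, 424 bins chosen by the reverse rule (SD, n = 3 each). The stages overlapped in the lamb-only clusters. The rim within 500 bases of a listed region was at 72.2%, 72.8% and 73.1% in lambs 1 to 3, against 73.2%, 73.9% and 73.1% in fetal animals 1 to 3. Each lamb was below each fetus there, lamb 3 only narrowly, with a difference of -0.726 points. Library fragments can span an LMR and its rim.

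**Figure D1:**
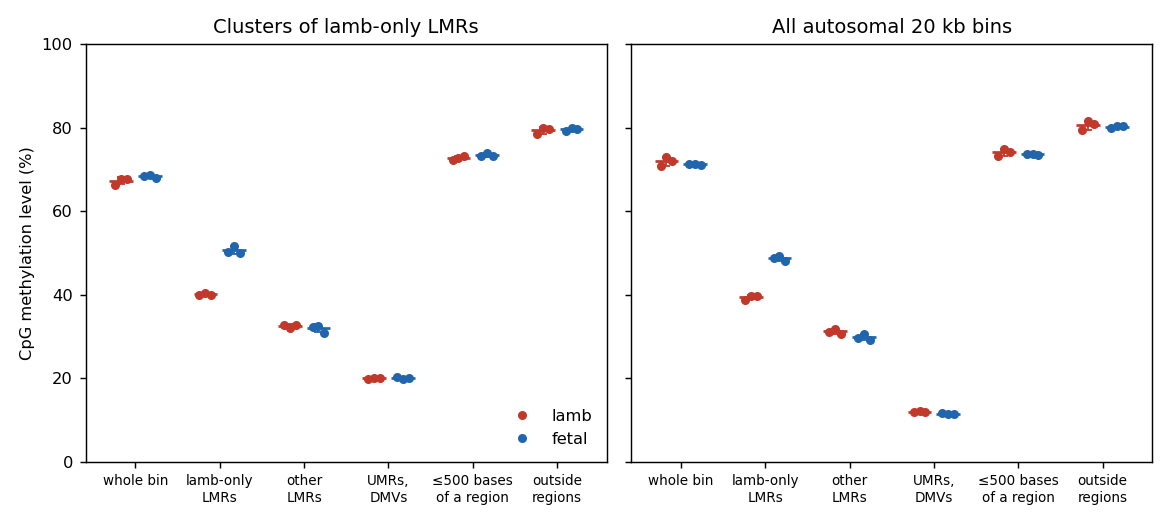
CpG methylation level (percent, vertical axis) by kind of CpG in the 228 clusters (left) and in all 122616 autosomal bins (right). Each point is an animal, lambs in red left of fetal animals in blue, with the mean and SD of 3 animals; the stages part clearly in the lamb-only LMRs, at 40.1% in lambs and 50.6% in fetal animals of the clusters, where the lists fixed the direction.

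CpGs away from every listed region were not used to choose the clusters. They were taken as CpGs more than 500 bases from each UMR, LMR, DMV and differentially methylated region (DMR) of either stage, a distance above the library fragments of 150 to 300 bases. In the clusters these CpGs were at 78.4%, 80.0% and 79.7% in lambs 1 to 3, against 79.3%, 79.9% and 79.5% in fetal animals 1 to 3. Lambs and fetuses overlapped. The mean was 79.4% ± 0.861 in lambs and 79.6% ± 0.324 in fetal animals (SD, n = 3 each), a difference of -0.211 points. That is within the spread of the lambs, and with lamb 1 left out it was 0.279 points. Over all autosomal bins the same kind of CpG was at 80.6% ± 1.09 in lambs and 80.2% ± 0.228 in fetal animals, a difference of 0.400 points.

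Tested bin by bin, no cluster could be called on these CpGs. Of the 228 clusters 206 had at least 10 such CpGs, with a median of 50 CpGs and 430.8 reads per animal, and 22 had too few. Adjusted over all 108639 tested bins, 0 of the 206 had p below 0.05 in a two-sided quasi-binomial test whose dispersion was moderated as in limma. The smallest adjusted p in a cluster was 0.530, and limma's method on log2 ratios also called 0. Over all tested bins 2 were called, or 0.00184%, both lower in lambs. An unadjusted p under 0.05 was found for 17 clusters, or 8.25%, with 13 (6.31%) lower and 4 (1.94%) higher in lambs. Among all tested bins the share was 5.88%, with 2.1% lower and 3.77% higher in lambs, at a median of 297.5 reads per animal. In either direction the share was 9.23% in the clusters of fetal-only LMRs. It was 7.22% in bins with at least 3 LMRs shared by both stages and no stage-only LMR. In bins with 2 lamb-only and no fetal-only LMR it was 7.55%. Every lamb lay below every fetus in 17 clusters, or 8.25%, against 3.83% of all tested bins, and above in 10 clusters, or 4.85%, against 6.94%. The median difference was 0.252 points in the clusters and 0.448 points over all tested bins, beside a median SD between animals of 2.397 points.

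With every CpG of the bin counted, the clusters stood at 66.3%, 67.8% and 67.7% in lambs 1 to 3, against 68.3%, 68.7% and 67.9% in fetal animals 1 to 3. Each lamb was below each fetus, narrowly for lamb 2 and fetal animal 3. The mean was 67.3% ± 0.794 in lambs and 68.3% ± 0.400 in fetal animals (SD, n = 3 each), a difference of -1.03 points, and the LMRs that chose the clusters are part of it. With lamb 1 left out the difference was -0.573 points. Over all autosomal bins the sign was the other way, with 71.9% ± 1.05 in lambs and 71.2% ± 0.107 in fetal animals. In 215 clusters with at least 10 usable CpGs the difference ran from -10.7 to 5.50 points, with a median of -0.775 and quartiles of -2.22 and 0.494. The mean was lower in lambs in 139 of these 215, or 64.7%, against 41.1% of 112033 tested bins. An unadjusted p under 0.05 was found for 28 clusters, or 13.0%, against 6.5% of all tested bins. Of these 25 (11.6%) were lower and 3 (1.40%) higher in lambs, against 2.14% and 4.36% of all tested bins. In either direction the share was 20.5% in the clusters of fetal-only LMRs. It was 9.37% in bins with at least 3 shared LMRs and no stage-only LMR. In bins with 2 lamb-only and no fetal-only LMR it was 9.57%. Tested clusters held medians of 91 usable CpGs and 775.2 reads per animal, against 42 and 366.3 over all tested bins. Every lamb was below every fetus in 25 clusters, or 11.6%, against 3.85% of all tested bins. Every lamb was above every fetus in 6 clusters, or 2.79%, against 7.6%.

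**Figure D2:**
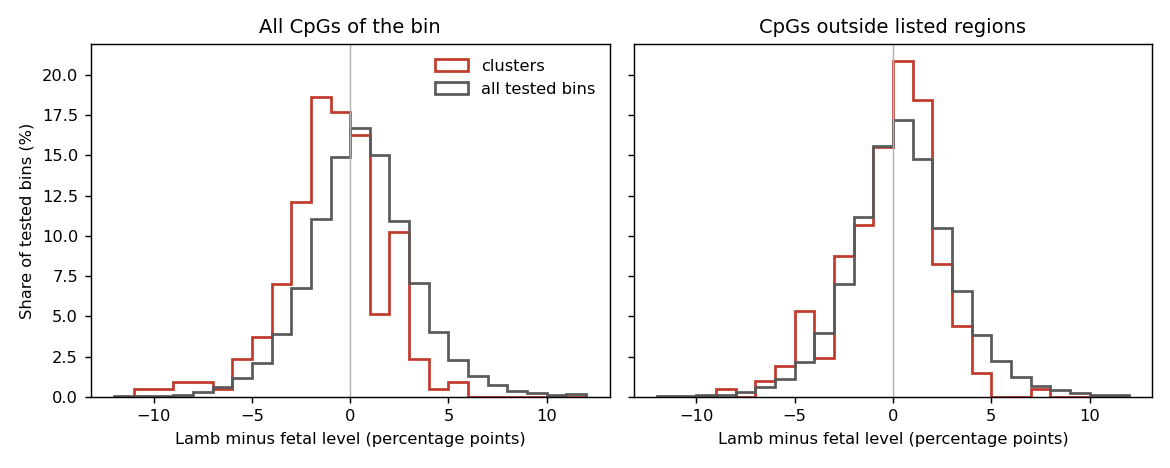
Share of tested bins (percent, vertical axis) by lamb minus fetal level (percentage points, steps of 1 point, with values beyond 12 points in the end steps), for the clusters in red and all tested bins in grey. With all CpGs of the bin (left) the clusters lie to the left of the other bins, with medians of -0.775 and 0.535 points; outside listed regions (right) the medians are 0.252 and 0.448 points.

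The lambs differed among themselves in their level over the whole genome. To take this into account, each animal's level was taken minus its own level over all other autosomal bins. On this scale all CpGs of the clusters were at -4.47, -5.14 and -4.36 points in lambs 1 to 3, against -2.93, -2.65 and -3.24 points in fetal animals 1 to 3. Each lamb was thus further below its own genome than each fetus was. The LMRs that chose the clusters count toward these values, so this is a description. CpGs outside listed regions were at -1.04, -1.58 and -1.05 points in lambs 1 to 3, against -0.653, -0.416 and -0.767 points in fetal animals 1 to 3. On these CpGs each lamb also lay below each fetus, with a difference of -0.613 points. The values of the stages overlapped when the bins were shifted by 10 kb, where the relative difference was -0.398 points, and when regions were extended by 1000 bases, where it was -0.402 points.

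Bins next to the clusters were measured in the same way, leaving out bins that were clusters themselves. In the next bin toward higher positions, CpGs outside listed regions were at -0.228, -0.126 and -0.172 points in lambs 1 to 3, against 0.460, 0.373 and 0.141 points in fetal animals 1 to 3. The stages did not overlap there, with a difference of -0.500 points, so the relative shift was not confined to the clusters. In the next bin toward lower positions these CpGs were at -0.163, -0.801 and -0.704 points in lambs, against -0.286, -0.181 and -0.195 points in fetal animals, and the stages overlapped. At 40 kb and beyond, up to 100 kb, the lamb minus fetal difference on this scale lay between -0.327 and 0.113 points. With all CpGs of the next bins it was -1.18 points toward higher positions, without overlap, and -0.262 points toward lower positions, with overlap. Over the 5 bins on either side the unadjusted level outside regions was 81.0% ± 0.932 in lambs and 80.7% ± 0.134 in fetal animals (SD, n = 3 each), a difference of 0.269 points within the spread of the lambs. It was -0.139 points without lamb 2.

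**Figure D3:**
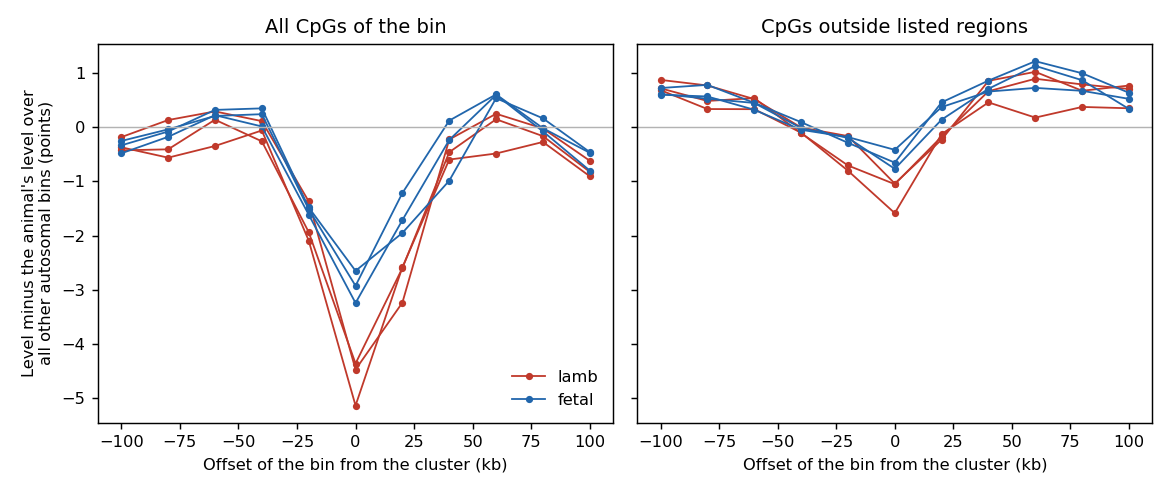
Level of each animal minus its own level over all other autosomal bins (percentage points, vertical axis) in the clusters (0 kb) and in bins up to 100 kb to either side, lambs in red and fetal animals in blue. At 0 kb the lambs are lowest, each below the fetal animals. The lambs are at -5.14 to -4.36 points with all CpGs (left), which include the LMRs that chose the clusters. Outside listed regions (right) the lambs are at -1.58 to -1.04 points.

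Around single LMRs the difference was narrow. Within 250 bases of the centre of a lamb-only LMR of the clusters, CpGs in no other listed region were at 51.1% ± 0.198 in lambs and 58.3% ± 0.944 in fetal animals, a difference of -7.26 points. From 250 to 500 bases it was -2.10 points, and from 500 to 750 bases -0.907 points, with 75.6% ± 1.15 in lambs and 76.5% ± 0.325 in fetal animals (SD, n = 3 each). From 750 to 3000 bases it stayed between -0.867 and -0.418 points. Lambs and fetuses overlapped in each step from 500 bases outward. Around the lamb-only LMRs elsewhere the difference was -7.50 points within 250 bases and already 0.161 points at 750 to 1000 bases, then 0.298 to 0.582 points out to 3000 bases.

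**Figure D4:**
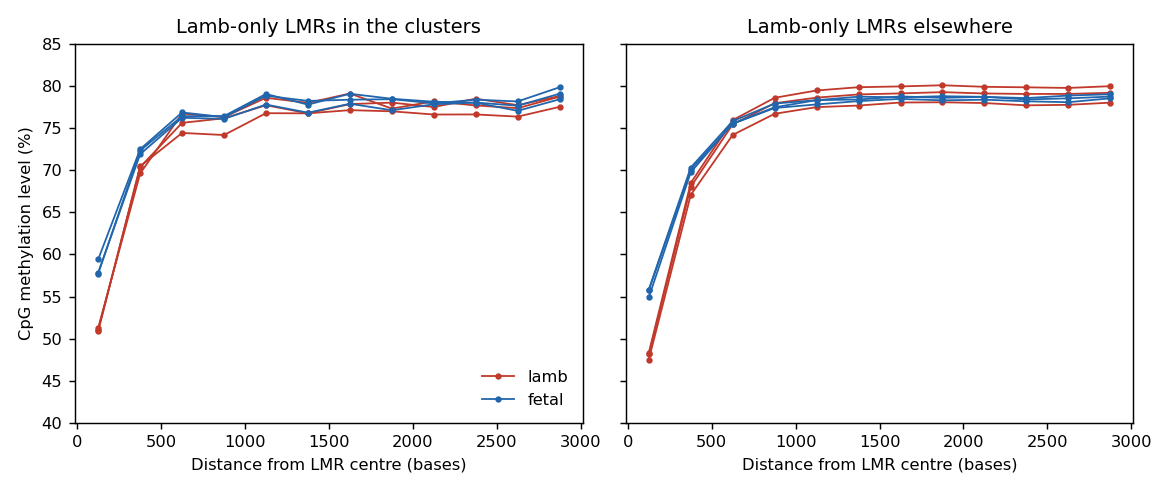
CpG methylation level (percent, vertical axis, cut to 40 to 85) by distance from the centre of lamb-only LMRs in steps of 250 bases, for the 721 LMRs in the clusters (left) and the 25502 elsewhere (right). Each line is an animal, lambs in red and fetal animals in blue; within 250 bases the clusters are at 51.1% in lambs and 58.3% in fetal animals, and the lines mingle further out.

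Among the clusters with most lamb-only LMRs, the one on chromosome 11 from 36000001 to 36020000 held 6, spread over bases 36000726 to 36007658. Its whole-bin level was 67.0%, 63.7% and 62.2% in lambs 1 to 3, against 68.8%, 70.3% and 68.8% in fetal animals 1 to 3. Every lamb was below every fetus, with a difference of -5.004 points (adjusted p = 0.586 over all bins, quasi-binomial test with limma's moderation). Its 39 usable CpGs outside listed regions were at 75.3% ± 2.502 in lambs and 77.7% ± 3.70 in fetal animals (SD, n = 3 each), within the spread.

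The other cluster with 6 lamb-only LMRs lay on chromosome 3 from 5060001 to 5080000 and also held 3 UMRs of the lamb list. Its whole-bin level was 54.6%, 57.9% and 56.0% in lambs 1 to 3, against 56.7%, 63.6% and 57.3% in fetal animals 1 to 3, so the stages overlapped. Outside listed regions it was at 62.8%, 68.4% and 70.6% in lambs, against 72.5%, 74.2% and 71.6% in fetal animals, over 504.8 reads per animal. All lambs were below all fetuses there, with a difference of -5.49 points (adjusted p = 0.773 over all bins, same test). Its LMRs were less uniform. That from 5075634 to 5075970 was at 42.4% ± 3.11 in lambs and 41.7% ± 7.22 in fetal animals, with overlap between the stages.

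The clusters with 5 lamb-only LMRs went in opposite directions. On chromosome 21 from 39400001 to 39420000 the whole-bin level was 73.7% ± 1.52 in lambs and 71.4% ± 0.908 in fetal animals, higher in each lamb than in each fetus. On chromosome 18 from 56580001 to 56600000 it was 66.6% ± 1.58 in lambs and 68.1% ± 1.37 in fetal animals, with overlap (SD, n = 3 each). A further pair, with the longest LMRs among clusters holding 4, lay on chromosome 3 from 51760001 to 51780000 and on chromosome 5 from 7880001 to 7900000. They had only 25 and 32 usable CpGs. Their levels overlapped between the stages, at 66.1% ± 3.02 in lambs and 67.5% ± 6.29 in fetal animals on chromosome 3, and at 64.4% ± 2.89 in lambs and 65.8% ± 6.98 in fetal animals on chromosome 5 (SD, n = 3 each).

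The largest whole-bin difference was on chromosome 18 from 26680001 to 26700000, at 49.7%, 55.8% and 54.0% in lambs 1 to 3, against 64.5%, 63.2% and 63.9% in fetal animals 1 to 3. The fetuses lay within a narrow range, and each lamb was below all of them. On chromosome 19 from 59540001 to 59560000, with 4 lamb-only LMRs, the level was 70.3%, 72.7% and 69.8% in lambs 1 to 3, against 79.0%, 75.6% and 80.4% in fetal animals 1 to 3. These 2 clusters were the 2 of 215 (0.930%) that passed an adjusted p under 0.05 on all CpGs, where 28 of 112033 bins did (0.025%, with 0.0107% lower and 0.0143% higher in lambs). Both were lower in lambs, and they were singled out after their values were seen. Each had an adjusted p of 0.00312 over all bins by the quasi-binomial test, moderated as in limma. Since the LMRs that chose the clusters count toward it, this is a description. Without lamb 1 both missed the threshold, at 0.0853 for chromosome 18 and 0.0598 for chromosome 19. The chromosome 19 cluster also missed it without fetal animal 3, at 0.0884, and the chromosome 18 cluster with a minimum of 3 reads, at 0.151 and a difference of -6.31 points.

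In both of these clusters the mean was lower in lambs outside the lamb-only LMRs as well. The lamb-only LMRs held only 13 of 102 usable CpGs on chromosome 18 and 7 of 197 on chromosome 19. The other CpGs thus made up most of the whole-bin level that singled out these clusters, so their direction largely follows from that choice. On chromosome 18 the lamb-only LMRs were at 22.5% ± 4.74 in lambs and 48.0% ± 6.23 in fetal animals, and other LMRs at 20.3% ± 7.35 in lambs and 30.3% ± 2.45 in fetal animals (SD, n = 3 each). Its CpGs outside listed regions were at 72.3%, 77.3% and 76.7% in lambs, against 81.3%, 82.9% and 80.7% in fetal animals, without overlap. On chromosome 19 CpGs outside listed regions were at 78.2%, 80.4% and 77.3% in lambs, against 85.6%, 79.9% and 84.2% in fetal animals, with lamb 2 above fetal animal 2. UMRs and DMVs of that bin, over 11 usable CpGs, were at 24.4% ± 6.20 in lambs and 37.3% ± 8.53 in fetal animals (SD, n = 3 each). The adjusted p outside listed regions was 0.718 and 0.595 for the clusters on chromosomes 18 and 19 (same test). Neither cluster held a DMR of the authors' lists.

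DMRs were few in the clusters. The authors' deposited hypo list, read as lower in lambs, had 8 DMRs in 8 clusters, or 3.51% of clusters against 0.393% of all bins. Their hyper list had 1, which put a hyper DMR in 0.439% of clusters against 0.417% of all bins. The DMRs come from the same contrast and animals as the LMR lists, so nothing is read from the shares. On chromosome 1 the DMR from 1960402 to 1960811, over a lamb-only LMR, was at 25.5%, 19.2% and 14.3% in lambs 1 to 3, against 44.4%, 42.3% and 50% in fetal animals 1 to 3, over 4 usable CpGs. With a minimum of 1 read it was at 26.7% ± 1.09 in lambs and 53.1% ± 2.33 in fetal animals. The bin around it, from 1960001 to 1980000, was at 83.9% ± 1.42 in lambs and 84.9% ± 0.776 in fetal animals (SD, n = 3 each), with overlap. On chromosome 3 the DMR from 220550816 to 220551098 was at 29.1% ± 12.1 in lambs and 51.3% ± 4.83 in fetal animals over 6 usable CpGs, and shared no base with a lamb-only LMR. With a minimum of 1 read it was at 20.2% ± 6.59 in lambs and 59.5% ± 9.75 in fetal animals (SD, n = 3 each). The DMR from 207463331 to 207463777 on chromosome 3 had only 2 usable CpGs, at 64.7% ± 7.90 in lambs and 77.6% ± 15.03 in fetal animals, with overlap. With a minimum of 1 read it was at 64.1% ± 5.13 in lambs and 90.2% ± 2.19 in fetal animals (SD, n = 3 each), without overlap. The DMR with most usable CpGs, chosen after its values were seen, lay on chromosome 7 from 97896640 to 97897330, in the cluster from 97880001 to 97900000. It was at 43.0%, 33.0% and 23.7% in lambs 1 to 3, against 68.9%, 68.75% and 67.5% in fetal animals 1 to 3. With a minimum of 1 read it was at 36.8% ± 12.8 in lambs and 71.7% ± 1.45 in fetal animals. The hypo DMR on chromosome 5 from 6337539 to 6337629 had 0 usable CpGs. With a minimum of 1 read, its animals overlapped widely, at 61.3% ± 37.0 in lambs and 55.8% ± 16.4 in fetal animals (SD, n = 3 each), with 21.7 reads behind the value of an animal on average.

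Clusters seldom adjoined each other. The longest run was 2 bins, and there were 2 such runs, on chromosome 3 from 220540001 to 220580000 and on chromosome 15 from 29840001 to 29880000. In the chromosome 3 run the whole-bin levels were 35.0% ± 2.59 and 70.9% ± 1.34 in lambs, for the lower and the higher bin, against 38.3% ± 3.596 and 72.1% ± 0.463 in fetal animals. On chromosome 15 they were 64.7% ± 1.80 and 73.6% ± 3.44 in lambs, against 65.6% ± 3.00 and 71.7% ± 0.603 in fetal animals (SD, n = 3 each). The stages overlapped in all 4 bins. In the bins next to a cluster there were 0.405 lamb-only and 0.462 fetal-only LMRs per bin, against 0.214 and 0.260 over all autosomal bins. Both kinds were more frequent there than in the genome.

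Chromosome ends held more than their share. Of the clusters 42, or 18.4%, lay in the last 5 Mb of a chromosome, which holds 5.30% of bins, and 24, or 10.5%, in the first 5 Mb. Within 2 Mb of an end there were 6.92 clusters per 1000 bins, against 0.687 per 1000 at over 40 Mb from both ends. The clusters of fetal-only LMRs had 14.04 and 1.85 per 1000 at the same distances, and 20.05% of them were in the last 5 Mb. Bins with at least 3 LMRs shared by both stages and no stage-only LMR, 2781 in number, had 11.3% there. They numbered 40.2 per 1000 bins within 2 Mb of an end and 12.6 beyond 40 Mb. Bins of all kinds were also richer in CpGs near the ends, with medians of 364 CpGs within 2 Mb and 133 beyond 40 Mb. Chromosome 24 had most clusters for its size, at 5.23 per 1000 bins, and chromosome 2 fewest, at 0.321. Chromosome 3 had most in number, 28.

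**Figure D5:**
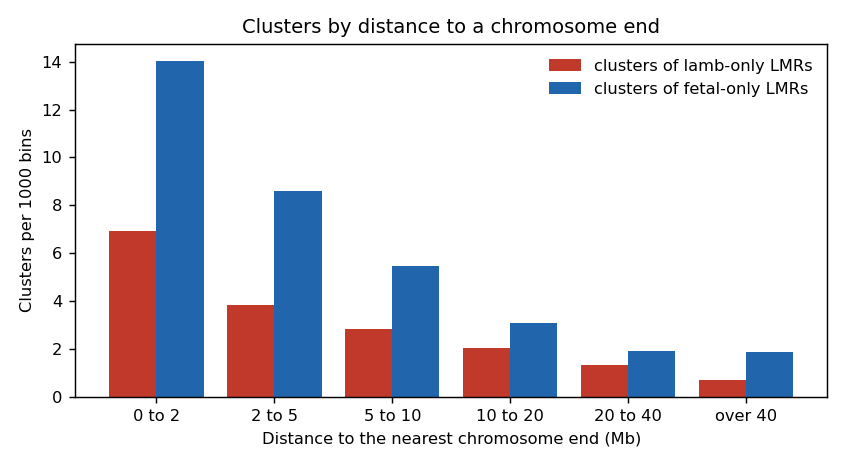
Clusters per 1000 bins of 20 kb (vertical axis) by distance of the bin to the nearest chromosome end (Mb, horizontal axis), lamb-only LMR clusters in red and fetal-only LMR clusters in blue. Both kinds thin out away from the ends, lamb-only clusters being 6.92 per 1000 bins within 2 Mb and 0.687 beyond 40 Mb.

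The 66 clusters within 5 Mb of an end and the 162 others were also measured apart, and the difference between these sets was not tested. In the lamb-only LMRs they were -12.01 points near the ends and -9.96 points elsewhere, and over whole bins -1.12 and -0.954 points. Outside listed regions the clusters near the ends were at 80.3% ± 1.10 in lambs and 80.7% ± 0.250 in fetal animals (SD, n = 3 each). Away from the ends they were at 78.7% ± 0.691 in lambs and 78.7% ± 0.418 in fetal animals.

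The clusters were richer in CpGs than most bins, as were other bins rich in LMRs. A cluster held a median of 289 CpGs (quartiles 180 and 485.5), against 162 over all bins, 319.5 in the fetal-only clusters and 307 in the bins with shared LMRs. A UMR of the lamb list lay in 27.2% of the clusters and in 14.2% of all bins, and a shared LMR in 58.8% and 38.7%. Coverage also differed between the stages in these bins. Relative to each animal's mean over all autosomal CpGs, coverage of the clusters was 1.03, 0.994 and 0.982 in lambs 1 to 3, against 1.05, 1.10 and 1.13 in fetal animals 1 to 3. The lambs were thus covered less than the fetuses in these bins, but they were also in the fetal-only clusters, at means of 1.01 in lambs and 1.11 in fetal animals. The part of coverage in the listing of LMRs was not tested.

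Values on either side of the choice were as follows. Clusters with exactly 3 lamb-only LMRs had a whole-bin difference of -0.934 points, and the 1857 bins with 2 lamb-only and no fetal-only LMR one of -0.186 points. The 141 bins with at least 3 lamb-only LMRs and at least 1 fetal-only LMR were at 67.8% ± 0.878 in lambs and 67.6% ± 0.236 in fetal animals, a difference of 0.230 points. Outside listed regions the differences were -0.112, 0.400 and 0.779 points in these 3 sets. The fetal-only clusters were at 70.8% ± 0.984 in lambs and 68.7% ± 0.345 in fetal animals over whole bins, each lamb above each fetus. Outside listed regions they were at 79.7% ± 1.10 in lambs and 78.9% ± 0.0770 in fetal animals (SD, n = 3 each), with overlap. Relative to each animal's own genome the fetal-only clusters differed there by 0.483 points and the lamb-only clusters by -0.613 points, both without overlap between the stages. The bins with at least 3 lamb-only LMRs and at least 1 fetal-only LMR differed by 0.379 points, also without overlap and with the lambs higher. The bins with 2 lamb-only LMRs differed by 0.00055 points and those with shared LMRs by 0.0711 points, both with overlap.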

How the data were processed

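At each CpG position the authors deposited raw counts of methylated reads and of all covering reads, in columns matched to the 6 animals by the sample descriptions, and lists of UMRs, LMRs and DMVs for each stage and of hyper and hypo DMRs. The series text gives Oar_v3.1 as the genome mapped to. The submitters' processing notes list BWA, Picard, hg19 and Oar_v3.1 but give no roles. The caller, the duplicate and conversion filters and the way regions were listed have no description in the labels and headers (not given in the sources used). Descriptions end in VEH for lambs and TV for fetal animals, so those tags cannot be told apart from stage. The minimum of 5 reads in each animal left 6163112 of 24936679 autosomal CpGs. The protocol names no molecular identifiers, so read numbers speak for counting error alone.

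Bins with at least 10 usable CpGs were tested by a quasi-binomial logistic model, lamb against fetal, two-sided. The dispersion was moderated over all bins as in limma's squeezeVar and kept at 1 or more. Benjamini-Hochberg adjustment ran over all tested bins, and a bin was called at an adjusted p under 0.05. The prior dispersion was 1.65 for whole bins and 1.58 outside listed regions. Levels over all clusters carry no p, because the clusters and tests were chosen with earlier results of these data known. Named were the 6 clusters with most lamb-only LMRs (ties by their summed length), any called outside listed regions without overlap, the longest runs, and the first 3 by position with most hypo DMRs. Alternatives were other coverage minimums, leaving out each animal, other bin starts and sizes, other cluster rules, other extensions of regions, equal weight per CpG, limma's method on log2 ratios of methylated to unmethylated reads (pseudocount 1), and the replicate number as a block. Positions were turned from starts counted from 0 to starts counted from 1. Genes and sequences are not used here. The tests, also those by limma's method, were computed with pandas 2.3.3, scipy 1.17.1 and numpy 2.4.6 in Python 3.11.15. The package limma 3.58.1 in R 4.3.3 was run only to check the moderation of the dispersion.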

Additional observations from a re-analysis of the deposited data

How the results depend on the processing

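The number of clusters, 228, was 211 with bins shifted by 10 kb, 184 when fetal regions within 500 bases also counted, 369 with any number of fetal-only LMRs, 2085 with at least 2 and 31 with at least 4 lamb-only LMRs, 82 with bins of 10 kb and 450 with bins of 40 kb. Clusters called outside listed regions, 0 of 206, were 0 in each setting run except with regions not extended, which gave 1. Bins called there, 2 in all, numbered 4 with regions not extended, 0 with an extension of 1000 bases, 0 with a minimum of 1 read, 1 with 8 reads (over 1692 bins), 1 without CpGs of high coverage, 0 with limma's method, and 2 to 5 when single animals were left out (4 for fetal animal 2, 5 for lamb 1). On whole bins, 28 calls became 9 with a minimum of 3 reads and 12 to 34 on leaving out single animals (12 for lamb 1, 13 for lamb 2, 13 for fetal animal 3). The 2 clusters called there became 1 with 3 reads and 0 to 2 on leaving out single animals (0 for lamb 1, 1 for fetal animal 3). The difference inside the lamb-only LMRs, -10.5 points, was -11.4 with 3 reads and -10.8 to -9.94 on leaving out single animals. The whole-bin difference ran from -1.29 (without lamb 2) to -0.573 points (without lamb 1) over its alternatives. Outside listed regions the difference of -0.211 points ran from -0.746 to 0.327, and was above 0 without lamb 1 (0.279), with bins shifted by 10 kb (0.00181), with 8 reads (0.0217), with any number of fetal-only LMRs (0.187) and with at least 2 lamb-only LMRs (0.327). Relative to each animal's own genome it ran from -0.775 to -0.398 points, in settings added after seeing the data. The causes of these changes were not tested. The labels tie no number to a shared litter or day. A replicate block by number gave calls of 3 bins and 0 clusters outside listed regions, and 37 bins and 2 clusters on whole bins. Over whole bins, correlations of deviations were 0.00951 to 0.0344 for lamb and fetal animals of equal number and -0.0228 to 0.00822 for other pairs, too low to pair them. Among the limits are coverage, with a median of 430.8 reads per animal behind a tested cluster outside listed regions, and 3 animals per stage.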
